A study of Mus musculus with 6 samples.

Results

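Trem and Cd300 receptors are surface proteins with 1 immunoglobulin-type domain, and Tyrobp (DAP12) is the transmembrane adaptor through which several of them signal. The set held 8 genes, namely Trem1, Trem2, Trem3, Tyrobp, Cd300a, Cd300lb, Cd300ld and Cd300lf, chosen by name. All 8 were among the 24312 rows of the authors' deposited table and all 8 were among its 11079 tested rows. They were measured in myeloid-derived suppressor cells (MDSCs), cultures of immature cells of the granulocyte and monocyte lineages that suppress T-cell responses. The cells were grown for 7 days from femur marrow with GM-CSF at 40 ng/mL and IL-6 at 40 ng/mL. Both genotypes carry the strain label C57BL/6 and the gate CD11b+ Gr1+: wild type (3 libraries) and Pim1-/- (3 libraries, here Pim1 knockout). Pim1 encodes a cytokine-induced serine/threonine kinase, and the comparison asks what differs without it. The labels give neither the age of the animals nor how the allele was made.

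Tyrobp has a short extracellular part and an activation motif in its tail; it joins receptors by a charged pair in the membrane, and the phosphorylated motif recruits the kinase Syk. Trem1 amplifies inflammatory signals in monocytes and neutrophils, Trem2 binds lipids and lipoproteins on macrophages and microglia, and Trem3 pairs with Tyrobp in the mouse, whereas its human counterpart is a pseudogene. In the Cd300 family, Cd300a and Cd300lf carry inhibitory motifs that recruit phosphatases. Cd300lb pairs with Tyrobp, and Cd300ld, described on granulocytic MDSCs of mouse tumours, pairs with the Fc receptor gamma chain, the product of Fcer1g.

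Each genotype has a single pooled value for a gene, hence no value below carries a spread over libraries; the unit is read as FPKM, which is per transcript length. Dividing a log2 fold change by its deposited test statistic gave its error, from which 95% intervals were built. A gene was called at a deposited q-value (adjusted p) under 0.05. By the authors' deposited table the targeted gene, Pim1, fell from 90.2 to 22.7 (q = 0.000831), so transcript of the locus remained. Markers of the gate were present, with Itgam (CD11b) at 138.8 in wild-type and 151.8 in knockout cells and the Gr1-related gene Ly6c2 at 392.4 and 997.1 per the authors' deposited table, while Ly6g was not analysed here. All 9 lymphocyte markers were under 1 in both genotypes. By the authors' deposited table the Y-linked Eif2s3y was at 6.79 in wild type and 0.0191 in Pim1 knockout (q = 0.537) and Xist at 5.21 and 7.21 (q = 0.0262), so genotype and the sex of the animals cannot be told apart.

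Sequence was at hand for the promoters of 6 of the 8 genes. The 300 bases shown run from 250 before to 50 after the RefSeq start (build GRCm38.p6, in which the coordinates of these promoters alone are given). Capitals mark the letters GAGGAA, or TTCCTC on the other strand, the core bound by PU.1, the transcription factor that directs myeloid development. They are shown for Cd300a and Cd300ld, which rose, for Trem2, the most abundant receptor, and for Cd300lb, the member closest to no difference and the 1 of the 6 without this core.
Cd300a, chr11:114889791-114890090, plus strand: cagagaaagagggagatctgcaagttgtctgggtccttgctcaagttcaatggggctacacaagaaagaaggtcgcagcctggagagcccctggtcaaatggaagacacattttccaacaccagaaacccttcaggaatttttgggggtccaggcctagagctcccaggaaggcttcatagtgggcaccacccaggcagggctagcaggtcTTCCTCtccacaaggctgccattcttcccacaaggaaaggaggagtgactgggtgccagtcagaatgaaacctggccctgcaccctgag
Cd300ld, chr11:114989837-114990136, minus strand: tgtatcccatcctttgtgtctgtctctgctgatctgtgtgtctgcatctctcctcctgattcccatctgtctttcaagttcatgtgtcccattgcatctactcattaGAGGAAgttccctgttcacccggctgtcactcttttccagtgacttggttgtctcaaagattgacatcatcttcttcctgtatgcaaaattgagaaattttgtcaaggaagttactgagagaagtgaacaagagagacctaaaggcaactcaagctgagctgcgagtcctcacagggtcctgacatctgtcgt
Trem2, chr17:48346151-48346450, plus strand: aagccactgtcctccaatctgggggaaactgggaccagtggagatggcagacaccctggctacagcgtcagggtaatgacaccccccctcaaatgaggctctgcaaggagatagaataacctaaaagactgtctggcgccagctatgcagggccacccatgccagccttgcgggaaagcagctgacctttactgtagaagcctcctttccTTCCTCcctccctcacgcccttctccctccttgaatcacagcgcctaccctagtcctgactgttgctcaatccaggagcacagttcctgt
Cd300lb, chr11:114934322-114934621, minus strand: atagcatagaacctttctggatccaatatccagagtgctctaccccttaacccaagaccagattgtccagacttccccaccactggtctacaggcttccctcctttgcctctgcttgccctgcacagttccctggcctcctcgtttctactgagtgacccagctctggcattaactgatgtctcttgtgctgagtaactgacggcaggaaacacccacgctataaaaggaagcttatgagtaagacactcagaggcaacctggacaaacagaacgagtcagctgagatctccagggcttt

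The PU.1 core was found in 5 of the 6 promoters (Trem1, Trem2, Cd300a, Cd300ld and Cd300lf) and in 28.3% of all 32851 promoters of this length, both strands read. Its first base lay at -39 in Cd300a, -143 in Cd300ld, -40 in Trem2 and -162 in Trem1, counted from the start, and Cd300lf held 2 matches, at -43 and at 1. The letters TTNNGNAA, the pattern of C/EBP factors of granulocyte and monocyte development, occurred in the same 5 promoters and in 40.7% of all, and overlapped no PU.1 core in them. The letters GAAANNGAAA, the core of the interferon response element, occurred in 0 of the 6 and in 3.44% of all. These are matches of letters and show neither binding nor its absence.

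The levels covered a wide range and kept nearly the same order in both genotypes. Tyrobp stood far above the receptors, at 4205 in wild type and 4442 in Pim1 knockout per the authors' deposited table, above 99.9% of tested genes in wild type. Trem2 followed at 399.7 and 480.2 and the inhibitory receptor Cd300lf at 148.7 and 173.1 per the authors' deposited table. Between them these receptors held most of the summed level of the 7 receptors, Trem2 64.3% and Cd300lf 23.9% in wild type, with 64.5% and 23.3% in Pim1 knockout. By the authors' deposited table, 4 receptors lay close together, Cd300lb (21.8 and 22.3), Cd300ld (16.3 and 21.9), Trem1 (15.8 and 18.6) and Cd300a (14.8 and 19.3). Trem1 ranked above Cd300a in wild type and below it in Pim1 knockout, and with 1 pooled value per genotype no order among these 4 can be tested. Trem3 was the lowest of the 8 at 4.31 and 8.74 per the authors' deposited table. Summed over the 7 receptors, the level was 14.8% of that of Tyrobp in wild type and 16.8% in Pim1 knockout.

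**Figure D1:**
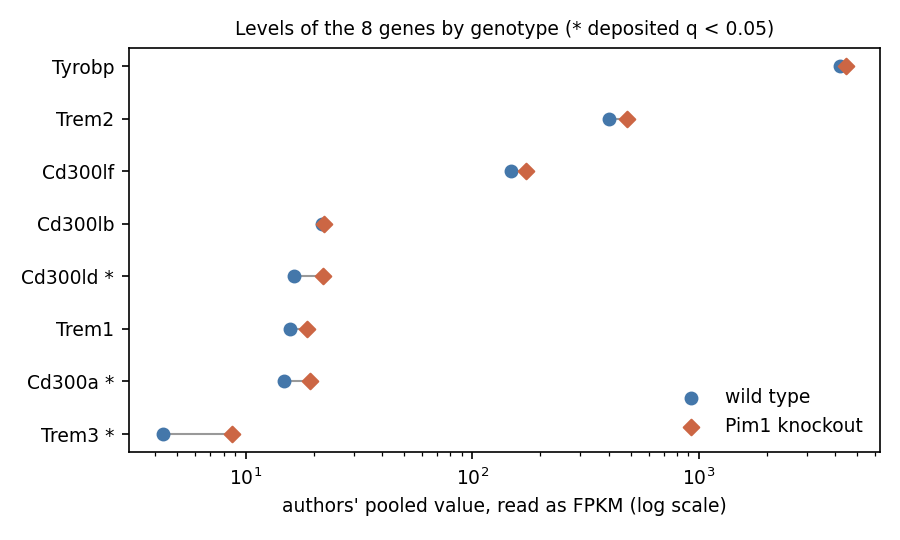
Authors' pooled value (read as FPKM, log scale) of each of the 8 genes in wild type (circles) and Pim1 knockout (diamonds), with no error because libraries were pooled. Tyrobp lies highest in both (4205 and 4442), Trem3 shows the widest gap (4.31 to 8.74), and the asterisks mark Trem3, Cd300ld and Cd300a.

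Of the 8 genes 3 rose in Pim1 knockout and 0 fell; over all tested genes 13.5% were called, 6.79% as higher and 6.73% as lower. All 8 fold changes lay above 0, as did 52.1% of 11049 genes with a defined test statistic, and 7 of 8 did after quantile normalization, under which Cd300lb came to -0.01. The median log2 fold change of the 8 was 0.25, against 0.01 over all tested genes. In bulk RNA of a mixed population, fewer cells of a type and less RNA per cell cannot be told apart. All 3 calls depended on the p-value that goes with a test statistic. Taken as a standard normal deviate, the deposited statistic called 0 of the 8 (1 at an unadjusted p under 0.05) and 3.31% of all genes.

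Among the Trem receptors, Trem3 rose. Trem3 (chromosome 17, 48386896 to 48398213 in the table's own coordinates) was at 4.31 in wild-type and 8.74 in knockout cells per the authors' deposited table, with a log2 fold change of 1.02 (error 0.39, interval 0.26 to 1.78, q = 0.000831). This was larger in size than 94.8% of the fold changes of tested genes, but with a pseudocount of 5 it fell to 0.56, since the gene is low. Its q shared the smallest value in the table with other genes, and the statistic read as a normal deviate gave an adjusted p of 0.177. Trem2 (chromosome 17, 48485726 to 48491601) was at 399.7 and 480.2 per the authors' deposited table, with a log2 fold change of 0.26 with an interval of -0.18 to 0.71 (error 0.23, q = 0.186). Trem1 (chromosome 17, 48371903 to 48386091), next to Trem3, was at 15.8 and 18.6 per the authors' deposited table, with a log2 fold change of 0.24 and an interval of -0.26 to 0.74 (error 0.25, q = 0.328). The q-values of Trem1 and Trem2 missed the threshold, and both intervals hold values below and above 0. No 50-base stretch of the protein-coding transcripts of Trem1, Trem2, Trem3, Tyrobp or Cd300lb occurred in a transcript of another gene in the GENCODE M21 annotation.

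Among the Cd300 receptors, 1 activating and 1 inhibitory gene rose by about the same amount. Cd300ld (chromosome 11, 114843761 to 114851200 in the table's own coordinates) rose from 16.3 to 21.9 per the authors' deposited table, 1.34-fold, with a log2 fold change of 0.42 (error 0.26, q = 0.0321). Cd300a, which binds lipids exposed on dying cells (chromosome 11, 114751355 to 114765965), rose from 14.8 to 19.3 per the authors' deposited table, 1.30-fold, with a log2 fold change of 0.38 (error 0.24, q = 0.044). Both q-values were near the threshold, and the intervals from the wider printed error, -0.08 to 0.92 for Cd300ld and -0.09 to 0.85 for Cd300a, include 0. The other inhibitory gene, Cd300lf, a receptor for ceramide and the entry receptor of mouse norovirus (chromosome 11, 114952745 to 115023554), was at 148.7 and 173.1 per the authors' deposited table, with an interval of -0.23 to 0.67 (log2 fold change 0.22, error 0.23, q = 0.318). The other activating gene, Cd300lb (chromosome 11, 114784095 to 114795700), was at 21.8 and 22.3 per the authors' deposited table, with an interval of -0.45 to 0.51 (log2 fold change 0.03, error 0.24, q = 0.931). Within the set, the 2 activating genes summed to 38.1 and 44.2 and the 2 inhibitory genes to 163.5 and 192.5 in wild type and Pim1 knockout. Neither sum holds AF251705, a row of the same cluster that may be a Cd300 gene. AF251705 was at 168.5 and 149.5 per the authors' deposited table (q = 0.477), above the activating sum in both genotypes. The sums therefore do not cover all Cd300 transcript, and their order and direction could differ with this row.

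Reads of these relatives could be split between them in counting. Of the 50-base stretches of their transcripts, 3.28% in Cd300a, 3.89% in Cd300ld and 6.04% in Cd300lf occurred in other genes. Cd300ld and Cd300lf shared 95 with each other. Of the 152 shared stretches of Cd300a, 91 occurred in Cd300c2, a relative without a row under that name. Whether the row AF251705 (168.5 and 149.5, far above Cd300a) holds Cd300c2 under another name could not be settled from the sources used. Cd300lf also shares its listed locus with Rab37, a small GTPase gene on the other strand in GENCODE M21. Rab37 was at 0.55 and 2.23 per the authors' deposited table (q = 0.484), far below Cd300lf, and no source used here says whether counting used strand.

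The adaptor itself was at almost the same level in both genotypes. Tyrobp (chromosome 7, 31198807 to 31202598 in the table's own coordinates) was at 4205 and 4442 per the authors' deposited table, with a log2 fold change of 0.08 with an interval of -0.40 to 0.56 (error 0.24, q = 0.816). Hcst (DAP10), the neighbouring adaptor that recruits phosphatidylinositol 3-kinase, was at 118.0 and 120.4 per the authors' deposited table (q = 0.948). Fcer1g, the adaptor of Cd300ld, was at 3788 and 4506 per the authors' deposited table (q = 0.28). This was somewhat below Tyrobp in wild type and slightly above it in Pim1 knockout. Cd247, the T-cell receptor zeta chain, was under 0.05 in both genotypes and was not tested. Of the 3 tested adaptors 0 had a deposited p under 0.05, adjusted or not.

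**Figure D2:**
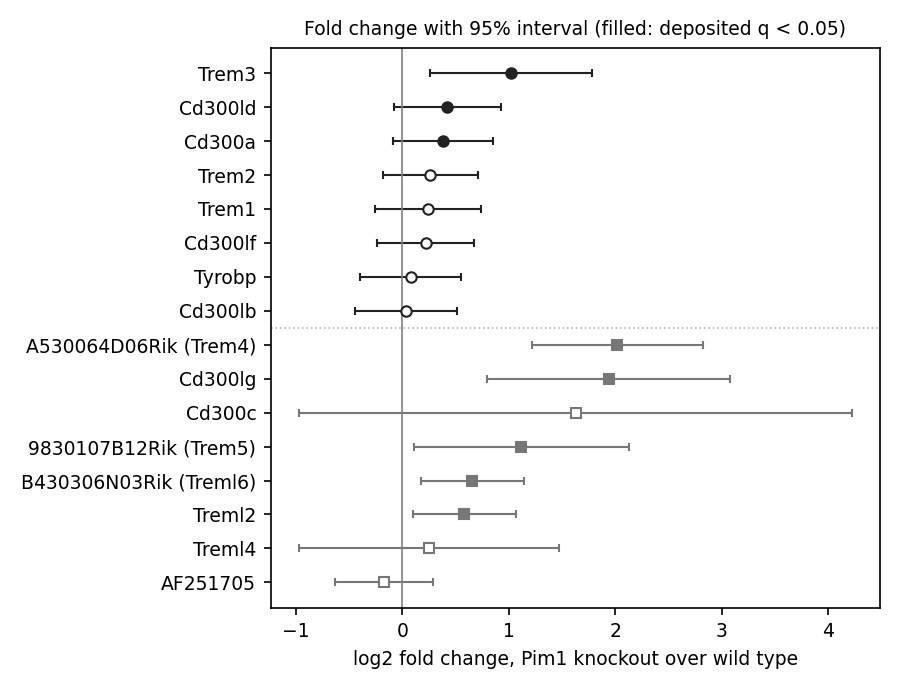
Log2 fold change (Pim1 knockout over wild type) with 95% intervals for the 8 genes (circles, upper block) and for the tested relatives of both families with A530064D06Rik and AF251705 (squares, lower block), filled where the deposited q-value was under 0.05. Cd300lg lies outside both clusters. Trem3, at 1.02, is the only one of the 8 whose interval lies wholly above 0, and AF251705, at -0.17, is the only point below 0.

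Several relatives rose as well. Of 16 listed relatives of both families 13 had a row, 6 were tested, 4 rose and 0 fell. Over all tested genes 6.79% were called as higher and 6.73% as lower. The 6 fold changes of the relatives had a median of 0.89 on the log2 scale. AF251705, which may be a further relative, is not counted among the 6. It was more abundant than any of them (168.5 and 149.5) and was not called (q = 0.477). B430306N03Rik, which RefSeq also names Treml6, rose from 15.1 to 23.8 (1.58-fold, q = 0.000831) and its neighbour Treml2 from 10.6 to 16.0 (1.50-fold, q = 0.00287) per the authors' deposited table. Treml2 signals without Tyrobp. The other called relatives were low, namely 9830107B12Rik (Trem5 in RefSeq), at 0.402 and 0.874 (q = 0.00287), and Cd300lg, a receptor of vascular endothelium, at 0.411 and 1.57 (q = 0.000831) per the authors' deposited table. Treml4, which binds dead cells, was at 0.669 and 0.794 (q = 0.749) and Cd300c at 0.171 and 0.527 (q = 0.28) per the authors' deposited table. Rows that were not tested (Treml1, Cd300e and Cd300lh among them) reached at most 0.265. Not on the list but named for its place beside Trem1, A530064D06Rik rose most, from 1.48 to 6.01 per the authors' deposited table (4.06-fold, error 0.41, q = 0.000831). RefSeq also names it Trem4 and pDC-TREM; in the mouse it is a Tyrobp-coupled receptor of plasmacytoid dendritic cells. With the statistic read as a normal deviate, A530064D06Rik and Cd300lg stayed called (q = 7.13e-05 and 0.0297), whereas B430306N03Rik, Treml2 and 9830107B12Rik did not.

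The called Trem genes lie in 1 cluster. Counts here stand beside 6.79% called as higher and 6.73% as lower over all tested genes. Over all Trem names, those from RefSeq included, 8 of 9 rows on chromosome 17 were tested, 5 rose and 0 fell, with a median log2 fold change of 0.62. Of the 10 Cd300 rows on chromosome 11, 6 were tested, 3 rose and 0 fell, with a median of 0.40. Within the Cd300 cluster the row listed as AF251705, beside Cd300ld, was at 168.5 and 149.5 per the authors' deposited table (q = 0.477), above Cd300lf in wild type (168.5 against 148.7) and the only tested row there below 0. It is not counted among the 10 rows because the reference tables pair that name with no gene, although by its place among them it may be a Cd300 gene. With AF251705 added to the 10 rows, 3 of 7 tested rows rose and 0 fell, with a median of 0.38, a count added after the values were seen. Among these risers, Cd300lg lies outside the cluster. Between the outermost Cd300 members, Rab37 and AF251705 included, 2 of 7 tested rows rose, Cd300a and Cd300ld, and 0 fell. Outside the Trem cluster but within 1 Mb of it, the cyclin gene Ccnd3 rose from 69.0 to 124.8 and the forkhead gene Foxp4 fell from 2.69 to 1.09 per the authors' deposited table (q = 0.000831 for both), while the adjoining Nfya and Oard1 were not called. Within 1 Mb of the Cd300 cluster 3 of 37 tested genes outside it rose, namely Ttyh2, Slc9a3r1 and Tmem104, and 0 fell. Within 1 Mb of Tyrobp, 2 of 45 tested genes rose, Dmkn and Sipa1l3, and 3 fell, Cd22, Lsr and Lgi4.

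The Trem cluster starts 18.7 Mb from the end of Pim1 on the same chromosome. Over all of chromosome 17, 52 of 607 tested genes rose and 49 fell, and within 10 Mb of Pim1 35 of 318 rose and 30 fell. For the whole genome, 752 of 11079 tested genes rose (6.79%) and 746 fell (6.73%). Whether a segment carried along with the Pim1 allele reaches the Trem cluster was not tested.

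**Figure D3:**
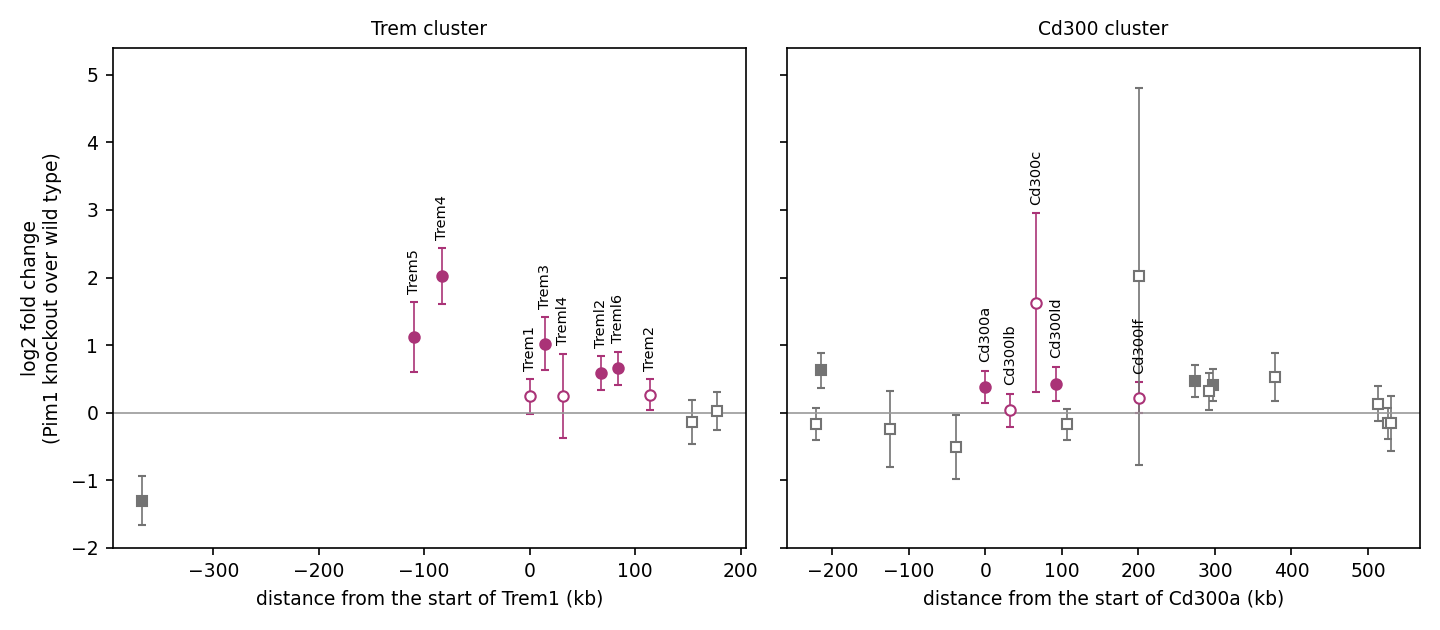
Log2 fold change (Pim1 knockout over wild type, bars ± the error) of tested genes by distance in kb from the start of Trem1 (left) and of Cd300a (right); round symbols are Trem and Cd300 genes under their family names, squares other rows (AF251705 among them), filled where the deposited q-value was under 0.05. The 8 Trem genes all lie above 0, with Trem4 highest at 2.02, and next to them Nfya and Oard1 lie near 0.

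Among the other receptors listed as using Tyrobp, more fell than rose. Of 7 tested, 1 rose and 3 fell (median log2 fold change -0.19), against 6.79% called as higher and 6.73% as lower over all tested genes. With the statistic read as a normal deviate 1 of the 7, Cd200r3, stayed called (q = 0.00548). The list leaves out A530064D06Rik, the Tyrobp-coupled receptor named above, which rose and also stayed called (q = 7.13e-05). The lectin Clec5a, named outside the rule as the member that rose, went from 33.0 to 45.0 (q = 0.00561) per the authors' deposited table. The signal-regulatory proteins Sirpb1a and Sirpb1b fell from 37.2 to 21.1 (q = 0.000831) and from 22.8 to 15.5 (q = 0.00287), and Cd200r3, a receptor of basophils and mast cells, fell from 4.90 to 1.43 (q = 0.000831) per the authors' deposited table. The values of Sirpb1a and Sirpb1b are uncertain, since 43.8% and 66.9% of the 50-base stretches of their transcripts also occur in transcripts of other genes, mostly Sirpb1c. The most abundant, Cd200r4, was at 59.3 and 52.0 (q = 0.441) per the authors' deposited table.

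Most of the pathway below the adaptor was not called. Of 23 tested genes of Tyrobp signalling 2 rose and 2 fell, 17.4% against 13.5% of all genes, with a median log2 fold change of -0.05. The Src-family kinases Src (10.2 to 6.41, q = 0.000831) and Fgr (52.2 to 37.7, q = 0.00561) fell, and the inhibitory adaptor Dok3 rose from 34.2 to 49.2 (q = 0.00287) per the authors' deposited table. Vav3, an exchange factor named outside the rule, rose from 1.17 to 1.95 (q = 0.00773), and the kinase Syk was at 33.1 and 27.1 (q = 0.146) per the authors' deposited table. The statistic as a normal deviate called 0 of the 23 (4 at an unadjusted p under 0.05). Of 14 other inhibitory receptors and phosphatases, 2 rose and 0 fell (median -0.08), where 13.5% of all genes were called. As a normal deviate 0 of the 14 were called, against 3.31% of all genes (0 also at an unadjusted p under 0.05). The risers in the deposited call were Clec12a (59.9 to 79.7, q = 0.0192) and the mast-cell and myeloid receptor Milr1 (68.2 to 90.4, q = 0.0288), whereas the most abundant, Lilrb4a, was at 428.6 and 482.1 (q = 0.486) per the authors' deposited table.

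Of 11 reported ligands and sheddases of Trem1 and Trem2, 1 rose and 0 fell (median -0.06). Beside this list and the next ones stands the share over all tested genes, 6.79% called as higher and 6.73% as lower. Pglyrp1, a granule protein of neutrophils that binds Trem1, rose from 9.55 to 31.8 per the authors' deposited table (3.33-fold, error 0.35, q = 0.000831) and was also called with the statistic read as a normal deviate. The most abundant, Lgals3, a galectin reported to bind Trem2, was at 4600 and 4660 (q = 0.972) per the authors' deposited table. Genes that depend on Trem2 in microglia went both ways, 1 higher and 5 lower of 16 tested (median 0.04). The cystatin Cst7 rose from 6.93 to 24.3 (q = 0.000831), while the integrin Itgax fell from 59.0 to 24.03 and the lectin Clec7a from 168.5 to 93.6 (q = 0.000831 for both), and the most abundant, the protease gene Ctsd, was at 5088 and 4668 (q = 0.751) per the authors' deposited table. Of 9 tested cytokine genes that Trem1 amplifies, 4 rose and 4 fell (median -0.22), among them Ccl7 (62.9 to 429.5) and Ccl2 (288.4 to 1135), which rose, and Cxcl1 (17.4 to 1.19), which fell, each at q = 0.000831 per the authors' deposited table.

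**Figure D4:**
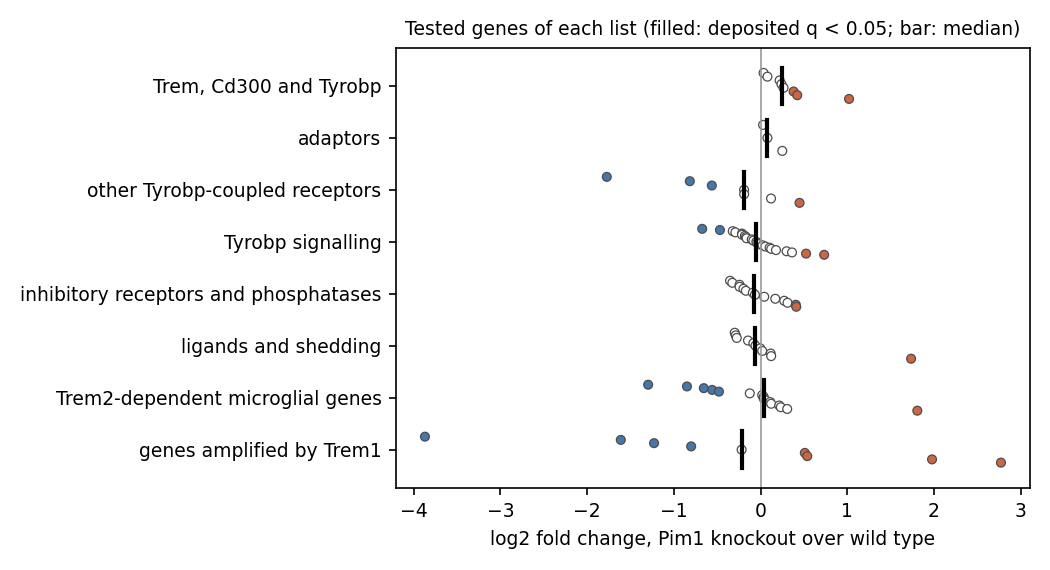
Log2 fold change (Pim1 knockout over wild type) of every tested gene of each list, 1 point a gene, filled where the deposited q-value was under 0.05 (orange higher, blue lower), with the list's median as a bar. The 8 genes lie between 0.03 and 1.02, and the lists of Trem1-amplified and of Trem2-dependent genes spread to both sides.

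Markers of some of the cell types that carry these receptors moved in the same comparison, while those of macrophages were not called. Of 11 tested markers of mature neutrophils, which carry Trem1 and Trem3, 8 rose and 0 fell. Over all tested genes 6.79% were called as higher and 6.73% as lower. The summed level of the neutrophil markers went from 2525 to 9426. By the authors' deposited table the most abundant, S100a8 and S100a9, were at 1308 and 369.3 in wild type and 6257 and 2029 in Pim1 knockout. Without both, a sum added after the values were seen, the markers summed to 847.5 and 1140, most of it Mmp8. The median log2 fold change of the 11 markers was 1.02. The markers not called were Mmp8 (735.1 and 767.9, q = 0.869), Cxcr2 (3.29 and 3.41, q = 0.925) and Retnlg (4.12 and 3.19, q = 0.567) per the authors' deposited table. Monocyte markers went 4 up and 1 down of 9 (sum 1124 and 1670), but without Ly6c2 the sum was lower in the knockout, at 731.5 and 672.8. Most of that smaller sum was Csf1r and Cd14. The most abundant monocyte marker after Ly6c2, Csf1r, was at 319.9 and 269.7 (q = 0.265) per the authors' deposited table. Named outside the rule, Cd14 fell from 265.5 to 153.4 (q = 0.000831) per the authors' deposited table. The risers other than Ly6c2 were Plac8 (2.08 to 55.3), F13a1 (51.7 to 82.3) and Vcan (9.78 to 17.5), each at q = 0.000831 per the authors' deposited table. Of 9 markers of macrophages, cells known for Trem2, 0 were called by either reading (sum 5622 and 6518). C1qb was at 1515 and 1756 (q = 0.372) and Gpnmb at 1045 and 1293 (q = 0.196) per the authors' deposited table. Dendritic cell markers summed to 584.3 and 457.1 (1 higher and 1 lower of 5 tested), led by H2-Ab1 at 521.8 and 426.6 (q = 0.154) per the authors' deposited table. Mast cell and basophil markers summed to 4.59 and 5.46, with 7 of 8 under 1 in both and 2 of them at 0, and eosinophil markers to 8.42 and 5.78, with 4 of 5 under 1. Of 3 tested mast cell and basophil markers, the receptor gene Kit rose from 3.25 to 4.73 (q = 0.0105) and the transcription factor gene Gata2 fell from 0.70 to 0.185 (q = 0.00399) per the authors' deposited table. Without Kit this sum was lower in the knockout, at 1.34 and 0.728. Of 2 tested eosinophil markers, Siglecf fell from 7.68 to 4.64 (q = 0.00156) per the authors' deposited table. As a normal deviate 0 markers of either list were called (2 of 3 and 1 of 2 at an unadjusted p under 0.05). The part of any of these in the rise of Trem3, Cd300ld and Cd300a was not tested.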

How the data were processed

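RNA of 6 libraries (3 wild type, 3 Pim1 knockout), made by a Smart-seq2 protocol per the labels, was compared. The authors deposited 1 table with a pooled value per gene and genotype, read as FPKM from its Cuffdiff-like layout, and, per the file headers, a log2 fold change, a p-value and q-value, and a test statistic, which is a score for each gene. The aligner, the annotation and the scaling were not stated in the sources used. The build mm10 is named in the submitters' processing notes, but 0 of the 8 genes overlapped their GRCm38.p6 RefSeq locus although the chromosomes of all 8 matched. The build of the table's coordinates is therefore unknown, and starts are counted from 1. Depth per library is unknown, which leaves counting error without an interval.

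Adjusting the p-values over the 11079 tested rows (Benjamini-Hochberg) returned the q-values to within 5.28e-07; 13227 rows were not tested and 6 were too deeply covered to estimate. The smallest p, 5e-05, was shared by 667 genes. The normal deviate of a deposited p-value was 1.74 times its test statistic (median), so the errors given here exceed those that the p-values imply. No fit over libraries was possible, so the authors' test was used as deposited. Members and gene lists were chosen with earlier results of these data known. Named were all 8 genes, Pim1, up to 3 called genes with the smallest q-value and the most abundant gene of each list, the 2 most abundant markers of each cell type, and the rows between, or called within 1 Mb of, the clusters. A gene that this rule names is not reported here. Older names were matched through RefSeq synonyms. Tools were Python 3.11.15 with scipy 1.17.1, pandas 2.3.3, numpy 2.4.6 and matplotlib 3.10.9. The adjustment was run on simulated normal deviates, which bears on the reading of the statistic as a normal deviate and not on the deposited p-values. Promoters are from RefSeq.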

Additional observations from a re-analysis of the deposited data

How the results depend on the processing

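No paired analysis was possible because the table pools the 3 libraries of a genotype, and for the same reason no library could be left out. Of all genes, 1498 were called as deposited, 366 with the statistic read as a normal deviate, 973 at a q-value under 0.01, 715 once means under 10 were removed and 0 by Bonferroni, since the smallest p cannot pass it over 11079 genes. Of the 8 genes 3 were called as deposited, 0 as a normal deviate or by Bonferroni, and 1 (Trem3) at a q-value under 0.01; 4 had a deposited p under 0.05 unadjusted. The relatives had 4 calls, 1 as a normal deviate, 0 by Bonferroni, 2 with a mean of at least 1 or of at least 10, and 1 without the rest of chromosome 17, where fewer were tested. The signalling genes had 4 calls, 0 as a normal deviate or by Bonferroni (6 at an unadjusted deposited p under 0.05) and 2 with a mean of at least 10. Leaving out genes within 10 Mb of Pim1, or chromosome 17 other than the 8 genes, ended 0 of the 3 calls. This only readjusted the same p-values over fewer genes, so it could not test whether a segment was carried along with the Pim1 allele. Cd300lb changed sign after quantile normalization (-0.0066), and the fold change of Trem3 fell to 0.56 with a pseudocount of 5. The median of the 8 kept its direction under each pseudocount and scaling. Dividing by the summed value moved the median of all genes to 0.08. Among sums added after seeing the data, the log2 ratio of summed markers (knockout over wild type) turned from 0.57 to -0.12 for monocytes without Ly6c2 and from 0.25 to -0.88 for mast cells and basophils without Kit, and went from 1.90 to 0.43 for neutrophils without S100a8 and S100a9. Csf1r and Cd14 made up most of the remaining monocyte sum, and Mmp8, not called, most of the remaining neutrophil sum. These sums thus follow a few abundant genes and not the number of markers that rose.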
